A study of Mus musculus with 8 samples.

Results

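The genes described here are 10 neuronal RNA-binding and splicing factors, namely Rbfox1, Rbfox2, Rbfox3, Nova1, Nova2, Elavl2, Elavl3, Elavl4, Ptbp1 and Ptbp2. They were found by gene symbol among the 24343 genes of a bulk RNA-seq table of the whole mouse brain, and all 10 were present and above the minimum level of 1 FPKM used for the tests. The table lists 32 transcripts for them. FPKM counts the sequenced fragments of a transcript scaled to its length and to the size of the library, so that levels can be compared between genes. The RNA came from whole brains of 3 C57BL/6NCrl mice 56 to 62 days of age, kept under a single condition with no treatment or genetic change named in the labels, and mice 1 and 2 gave 3 libraries each and mouse 3 gave 2. The paper used male and female mice and does not state the sex of these 3. What distinguishes libraries of the same mouse was not stated, and such libraries are not independent, so each SD between mice has n = 3.

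The members belong to 4 protein families that bind pre-mRNA and mRNA and that together set much of the splicing pattern of neurons. Rbfox proteins bind the word TGCATG in introns next to alternative exons, and Rbfox3 is the protein known as NeuN, the usual nuclear marker of neurons. Nova proteins bind clusters of the word TCAT and its close variants, and were first found as autoantigens of a neurological syndrome. Neuronal Elavl proteins, the Hu family, bind U-rich and AU-rich stretches in introns and in the ends of mRNAs, whereas Elavl1 is their broadly expressed relative. Ptbp1 represses neuronal exons in non-neuronal cells and progenitors, and neurons replace it with the related Ptbp2.

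Whole-brain RNA mixes neurons with glia and vessels, and in such samples fewer cells of a type and less RNA per cell cannot be told apart. The bases read on transcripts amounted to 1.31 to 2.02 gigabases a library, and 12728 to 13006 genes reached 1 FPKM. The tissue label was met by the brain markers, with the neuronal gene Snap25 at 1056 FPKM, the oligodendrocyte gene Mbp at 1925 FPKM and the astrocyte gene Slc1a3 at 182 FPKM. The muscle gene Ckm (0.0193 FPKM) and the pituitary gene Prl (0.165 FPKM) were near 0 and listed at 0 in some libraries. These were the lowest of their lists. The highest were Acta1 for muscle, at 3.66 FPKM with 12.6 FPKM in its highest library, and Pomc for pituitary, at 1.58 FPKM. Epithelial and muscle splicing factors were also low, with Esrp2 at 0.0453 FPKM and Rbm24, the highest of 4, at 3.52 FPKM.

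Rbfox3 and Rbfox1 were the most abundant of the 10 genes. Rbfox3 (chr11:118489760-118911597, mm10) had a mean level of 68.1 ± 12.9 FPKM (SD, n = 3 mice). Its libraries measured 77.1, 77.5 and 79.1 FPKM in mouse 1, 74.0, 71.3 and 73.1 FPKM in mouse 2, and 57.1 and 49.9 FPKM in mouse 3. Both libraries of mouse 3 were below all 6 of the other mice. Rbfox1 (chr16:5884793-7412480), a regulator of neuronal excitability and of synaptic mRNAs, had a mean level of 65.2 ± 17.2 FPKM. It measured 77.7, 78.1 and 77.6 FPKM in mouse 1, 76.4, 70.5 and 70.1 FPKM in mouse 2, and 47.8 and 43.4 FPKM in mouse 3, again without overlap between mouse 3 and the others. Rbfox2 (chr15:77078990-77307053), which is also expressed in muscle, epithelia and stem cells, was lower, at 32.9 ± 1.94 FPKM. Its lowest library had 29.1 FPKM, the median was 33.5 FPKM and the highest had 34.96 FPKM, the narrowest relative spread among the Rbfox genes.

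Each Rbfox gene has a coding exon of 93 bases in its RNA recognition motif, the domain that holds the RNA. It is shown because some Rbfox2 and Rbfox3 transcripts leave it out, and its share is given with the transcripts. The exons were read from the GRCm38 genome with the GENCODE M21 annotation and lie at chr16:7292185-7292277 on the plus strand (Rbfox1), chr15:77105577-77105669 on the minus strand (Rbfox2) and chr11:118502842-118502934 on the minus strand (Rbfox3). All are written 5′ to 3′, and capitals mark bases that differ from Rbfox1.
Rbfox1: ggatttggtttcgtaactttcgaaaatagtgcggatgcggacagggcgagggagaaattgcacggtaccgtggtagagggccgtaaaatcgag
Rbfox2: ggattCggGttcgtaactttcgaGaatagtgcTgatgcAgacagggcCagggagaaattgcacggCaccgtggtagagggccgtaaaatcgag
Rbfox3: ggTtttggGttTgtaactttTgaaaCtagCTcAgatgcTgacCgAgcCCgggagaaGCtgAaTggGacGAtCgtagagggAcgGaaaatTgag
The Rbfox2 exon matched that of Rbfox1 at 86 of 93 bases and the Rbfox3 exon at 69 of 93. Rbfox3, the closest to Rbfox1 in level, was thus the more different in this exon.

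Among the neuronal Elavl genes, Elavl3 (chr9:22015005-22052023), known as HuC, was the most abundant, at 42.6 ± 6.55 FPKM. It measured 49.1, 47.4 and 47.2 FPKM in mouse 1, 47.3, 44.4 and 42.4 FPKM in mouse 2, and 38.5 and 32.1 FPKM in mouse 3. Elavl4 (chr4:110203737-110351911), or HuD, which stabilizes growth-associated mRNAs such as Gap43, had 24.1 ± 5.99 FPKM. Its values were 27.5, 28.4 and 27.2 FPKM in mouse 1, 30.8, 26.0 and 25.5 FPKM in mouse 2, and 16.7 and 17.6 FPKM in mouse 3. Elavl2 (chr4:91250767-91399984), or HuB, had 20.3 ± 3.37 FPKM, with 22.6, 24.1 and 22.4 FPKM in mouse 1, 22.5, 19.8 and 21.4 FPKM in mouse 2, and 15.6 and 17.5 FPKM in mouse 3. For these 3 genes, too, both libraries of mouse 3 were below the other 6, as they were for 21.7% of all genes tested.

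The neuronal Elavl genes share a coding exon of 39 bases in the hinge between RNA recognition motifs, a region that carries nuclear export signals. The exon is shown because transcripts of Elavl2 and Elavl4 differ in it. It lies on the minus strand at chr9:22024674-22024712 (Elavl3), chr4:91254141-91254179 (Elavl2) and chr4:110209740-110209778 (Elavl4), and capitals mark bases that differ from Elavl3.
Elavl3: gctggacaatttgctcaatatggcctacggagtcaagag
Elavl2: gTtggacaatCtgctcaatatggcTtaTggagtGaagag
Elavl4: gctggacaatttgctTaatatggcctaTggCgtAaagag
The exon was identical to that of Elavl3 at 34 of 39 bases in Elavl2 and at 35 of 39 in Elavl4. Elavl4 has in addition a coding extension of 42 bases at the start of an exon (chr4:110206660-110206701, minus strand) that some transcripts use and others do not.
Elavl4 extension: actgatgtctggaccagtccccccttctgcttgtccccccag

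The Nova genes were expressed at about equal, lower levels. Nova1 (chr12:46694517-46818775) had 11.7 ± 1.86 FPKM, with 12.7, 13.5 and 13.6 FPKM in mouse 1, 12.3, 12.4 and 12.3 FPKM in mouse 2, and 9.35 and 9.99 FPKM in mouse 3. Nova2 (chr7:18925888-18965319), the main Nova gene of the cortex, had 10.4 ± 0.803 FPKM, with 10.9, 10.4 and 10.9 FPKM in mouse 1, 10.7, 10.9 and 11.3 FPKM in mouse 2, and 10.7 and 8.22 FPKM in mouse 3. For Nova2 the groups overlapped, since the first library of mouse 3 stood among those of the other mice. Nova1 regulates its own splicing through a coding exon of 72 bases (chr12:46713498-46713569, minus strand), which is shown because it holds the words that Nova binds. Capitals mark matches of TCAT or CCAT, or of either word with a final C in place of its T, searched on the strand of the transcript.
Nova1: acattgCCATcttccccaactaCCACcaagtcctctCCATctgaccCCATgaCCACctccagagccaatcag
The exon holds 5 matches. Of 1282 annotated exons of the same length, 68.8% hold at least 1 of these words and 0.936% hold at least as many as the Nova1 exon. The table lists a single Nova1 transcript, so that the share of mRNA with this exon could not be read from it.

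Ptbp2 (chr3:119718742-119783388) was well above Ptbp1 in every library. Ptbp2 had 29.3 ± 3.94 FPKM, with 31.9, 32.3 and 31.3 FPKM in mouse 1, 32.2, 30.3 and 31.1 FPKM in mouse 2, and 25.4 and 24.1 FPKM in mouse 3. Ptbp1 (chr10:79854432-79864435) was the lowest of the 10 genes, at 7.78 ± 0.330 FPKM, with 8.04, 8.16 and 7.65 FPKM in mouse 1, 7.62, 8.15 and 8.20 FPKM in mouse 2, and 8.39 and 6.41 FPKM in mouse 3. The libraries of mouse 3 were the highest and the lowest of all 8 for Ptbp1, whereas both were the lowest for Ptbp2.

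Ptbp1 controls Ptbp2 through an exon of 34 bases, and controls itself through the matching exon of its own gene. The exon is shown because its length is not a multiple of 3, so that leaving it out shifts the reading frame and exposes the mRNA to nonsense-mediated decay. It lies at chr3:119724612-119724645 on the minus strand (Ptbp2) and chr10:79862014-79862047 on the plus strand (Ptbp1), and capitals mark bases that differ from Ptbp2.
Ptbp2: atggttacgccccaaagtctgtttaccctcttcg
Ptbp1: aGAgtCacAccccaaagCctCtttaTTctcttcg
The exons were identical at 26 of 34 bases. Ptbp1 has a further coding exon of 78 bases (chr10:79860117-79860194, plus strand), which changes its strength as a repressor and is shown because it separates the Ptbp1 transcripts of the table.
Ptbp1 exon: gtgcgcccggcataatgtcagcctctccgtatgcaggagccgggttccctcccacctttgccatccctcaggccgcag
Neither TCTT nor CTCTCT, the words searched on the strand of the transcript for pyrimidine tract binding, is in these 78 bases. Of 1324 annotated exons of this length, 29.1% hold at least 1 of them, so their absence is the more common case.

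**Figure D1:**
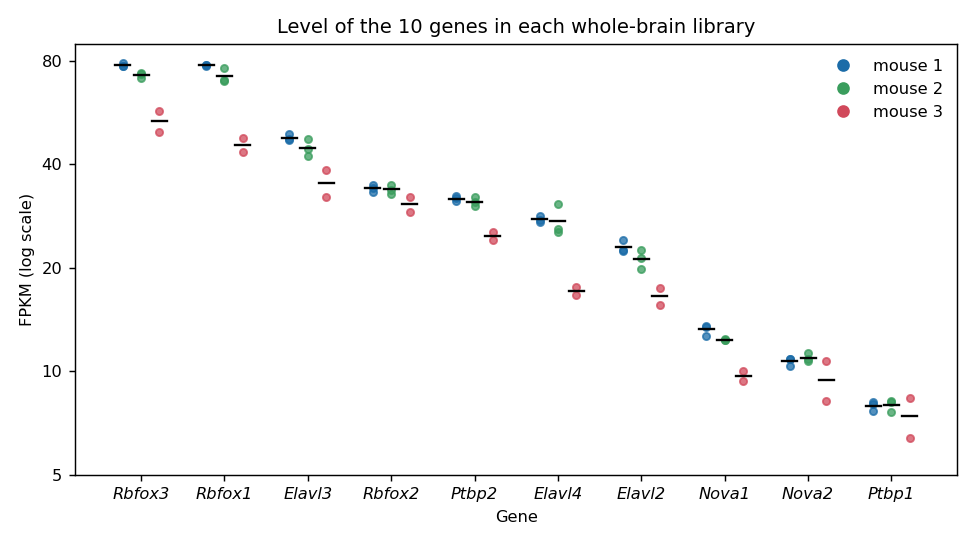
Level of each gene in FPKM (log axis), with 1 point per library, colours for the 3 mice and a black bar for each mouse mean. Levels ran from 7.78 FPKM (Ptbp1) to 68.1 FPKM (Rbfox3). The points of mouse 3 lie below those of the other mice for 8 of the 10 genes, beside 21.7% of all genes tested.

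In the order of levels, Rbfox3, Rbfox1, Elavl3, Rbfox2, Ptbp2, Elavl4, Elavl2, Nova1, Nova2 and Ptbp1 followed each other. Each gene was above the next in its mean level in 3 of 3 mice. For 3 of the 9 neighbouring pairs the mouse means did not overlap, namely Elavl3 over Rbfox2 (a ratio of 1.29), Elavl2 over Nova1 (1.72) and Nova2 over Ptbp1 (1.33). The other 6 pairs overlapped in their mouse means, from Rbfox3 over Rbfox1 (1.06) to Rbfox1 over Elavl3 (1.502). An exact two-sided sign permutation test over 3 mice gave p = 0.25 for each pair, the smallest value that 3 mice allow. Against all 13001 genes tested, 6.79% were at or above the level of Rbfox3, 7.23% at or above Rbfox1 and 53.7% at or above Ptbp1.

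Within its family, each gene was then given as a share. Rbfox3 took 41.0% ± 0.268 of the summed Rbfox FPKM, with 40.4% in its lowest and 41.7% in its highest library. Rbfox1 took 38.8% ± 3.20, with means of 41.0% and 40.4% in mice 1 and 2 and 35.2% in mouse 3. Rbfox2 took 20.2% ± 3.03, with 18.0%, 18.9% and 23.6% in mice 1, 2 and 3. The share of Rbfox3 was therefore alike in the 3 mice, whereas mouse 3 had a smaller share of Rbfox1 and a larger share of Rbfox2 than the other mice, without overlap between libraries. No test was fixed for these shares.

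In the Nova family Nova1 took 53.0% ± 2.29 of the sum. Elavl3 took 42.7% ± 1.25 of the Elavl sum, Elavl4 23.8% ± 2.04, Elavl2 20.3% ± 0.478 and Elavl1 13.1% ± 0.382. The 3 neuronal Elavl genes together had 6.62 ± 0.209 times the FPKM of Elavl1. Ptbp2 took 71.2% ± 1.57 of the Ptbp sum, Ptbp1 19.1% ± 1.44 and Ptbp3, a broadly expressed relative, 9.68% ± 0.401. The ratio of Ptbp2 to Ptbp1 was 3.77 ± 0.333, between 3.02 in the first library of mouse 3 and 4.23 in the first library of mouse 2. It was above 1 in all 8 libraries.

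**Figure D2:**
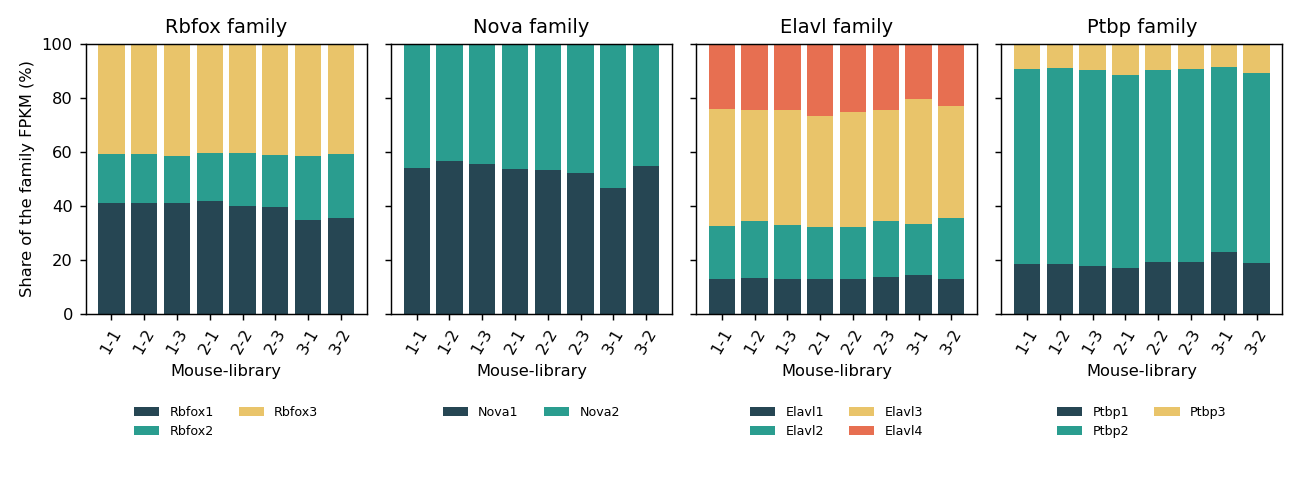
Share of each gene in the summed FPKM of its family (y axis, percent) in each of the 8 libraries (x axis, mouse and library number). Rbfox3 held 41.0% of the Rbfox sum and Ptbp2 71.2% of the Ptbp sum in the mean over mice, and the Rbfox1 share was smaller in both libraries of mouse 3.

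Of the 10 genes, 4 have 1 transcript in the table (Nova1, Nova2, Elavl3 and Ptbp2) and 6 have several. FPKM of single transcripts rests on how the estimation divided shared reads, and the half-width of the deposited confidence bounds had a median over libraries of 5.82% of the value for the main Rbfox1 transcript NM_183188 but of 25.9% for the Ptbp1 transcript NM_001077363. The features below are therefore given as shares of the FPKM of a gene on transcripts with that feature.

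Rbfox1 has 2 transcripts, which start 1185042 bases apart. The transcript from the downstream start, NM_183188, held 78.8% ± 0.977 of the gene, with 76.9% in the lowest and 81.7% in the highest library. The upstream transcript, NM_021477, held 21.2% ± 0.977. Both fell in mouse 3, with a log2 difference of −0.69 ± 0.0776 (SE) for the downstream transcript (adjusted p = 0.00855, limma) and −0.71 ± 0.117 for the upstream transcript (adjusted p = 0.0134, limma). The share of the downstream start was 79.5%, 77.7% and 79.3% in mice 1, 2 and 3. The promoters at the starts, each a window of 300 bases around the start on the plus strand, were taken from RefSeq (GRCm38.p6) and lie at chr16:5884543-5884842 (upstream) and chr16:7069585-7069884 (downstream). They are shown because both were in use, and capitals mark CG pairs.
Upstream: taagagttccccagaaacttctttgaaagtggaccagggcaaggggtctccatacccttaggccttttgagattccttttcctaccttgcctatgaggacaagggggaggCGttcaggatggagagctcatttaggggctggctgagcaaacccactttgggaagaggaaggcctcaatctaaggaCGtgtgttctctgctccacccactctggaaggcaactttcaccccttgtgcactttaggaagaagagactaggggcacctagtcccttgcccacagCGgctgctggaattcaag
Downstream: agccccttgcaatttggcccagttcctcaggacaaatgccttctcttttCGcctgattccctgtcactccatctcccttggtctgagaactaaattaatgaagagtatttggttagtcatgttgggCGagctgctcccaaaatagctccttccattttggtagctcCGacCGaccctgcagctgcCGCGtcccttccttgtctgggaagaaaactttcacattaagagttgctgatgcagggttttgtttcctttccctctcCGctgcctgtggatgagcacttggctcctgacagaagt
The upstream promoter holds 3 CG pairs and the downstream promoter 7. Of 32851 promoters of this length, 76.7% hold at least 3 and 52.1% at least 7.

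Rbfox2 has 9 transcripts, of which NM_001110828 (35.2% ± 3.59), NM_001110830 (34.4% ± 3.63) and NM_175387 (17.9% ± 2.35) held most of the gene. Transcripts from the upstream start held 20.1% ± 0.696. The 93-base exon of the RNA recognition motif was left out of 9.11% of Rbfox2 FPKM in the mean over mice, with 4.997% in the lowest and 12.4% in the highest library. A 12-base extension was on 36.4% ± 3.38 and an exon of 40 bases on 72.1% ± 3.17. The share with the 12-base extension ranged from 27.0% to 42.5% within mouse 2 alone, whereas the 3 mouse means ran from 33.1% to 39.8%.

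Rbfox3 has 6 transcripts, led by NM_001024931 (66.6% ± 2.95) and NM_001285436 (22.3% ± 3.67). The 93-base exon was left out of 1.87% of Rbfox3 FPKM, with 0.568% in the lowest and 3.27% in the highest library. Each library of Rbfox3 thus had a smaller share without this exon than each library of Rbfox2. Transcripts with the longer form of another exon held 26.6% ± 3.39, with 20.9% to 32.1% over libraries. Of the Rbfox3 transcripts, NM_001285436, which has the longer form, measured 23.4, 15.6 and 18.8 FPKM in mouse 1, 18.6, 16.3 and 18.1 FPKM in mouse 2, and 11.1 and 8.41 FPKM in mouse 3, a log2 difference of −0.86 ± 0.163 (SE, adjusted p = 0.0177, limma).

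The 39-base hinge exon was on 96.5% ± 0.747 of Elavl2 FPKM and on 91.1% ± 1.55 of Elavl4 FPKM. Its range over libraries was 88.5% to 99.999% in Elavl2 and 85.4% to 95.3% in Elavl4, and these ranges overlapped. Elavl3, with 1 transcript, gave no share. The 42-base extension of Elavl4 was on 46.05% ± 2.64, with 40.4% to 51.8% over libraries. The more abundant of the 2 Elavl4 transcripts with both features, NM_001038698, fell in mouse 3, with a log2 difference of −0.85 ± 0.133 (SE, adjusted p = 0.0122, limma), and NM_001163399, with the exon but without the extension, also fell (−0.57 ± 0.123, adjusted p = 0.0233). The difference between these transcripts was not tested. The other transcript with both features, NM_010488, was at most 0.00239 FPKM in the libraries of mice 1 and 2 and at 0.899 and 0.409 FPKM in those of mouse 3, below the minimum level.

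The 78-base exon of Ptbp1 was the most variable feature. It was on 83.7%, 31.9% and 53.0% of Ptbp1 FPKM in the libraries of mouse 1, on 33.9%, 9.68% and 29.5% in those of mouse 2, and on 12.9% and 23.2% in those of mouse 3. The mean was 32.9% ± 20.5, and the libraries of mouse 1 alone ran from 31.9% to 83.7%. Mouse 2 overlapped with each of the others, whereas both libraries of mouse 3 were below all 3 of mouse 1. Neither Ptbp1 transcript tested differed between the mice (adjusted p = 0.140 for NM_001077363 and 0.305 for NM_008956, limma F-test). Ptbp1 had the lowest level of the 10 genes, so that its division into transcripts rested on the fewest reads per length. The part of this in the spread of the exon was not tested.

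**Figure D3:**
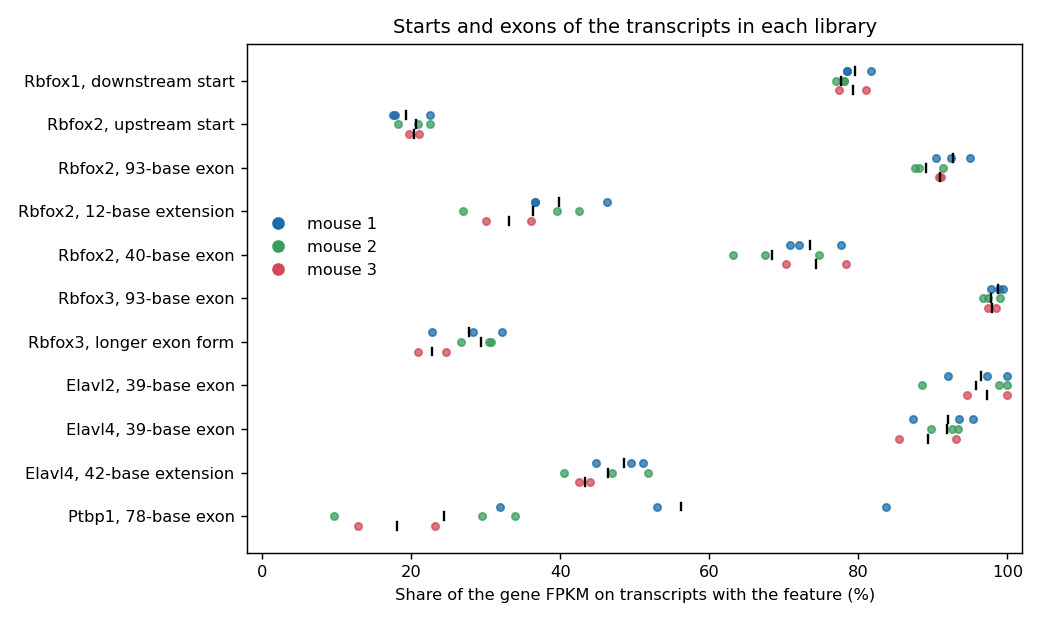
Share of the FPKM of a gene that lies on transcripts with a given start or exon (x axis, percent), with 1 point per library, colours for the mice and a black bar for each mouse mean. The Rbfox1 downstream start stays between 76.9% and 81.7%, whereas the Ptbp1 78-base exon spreads from 9.68% to 83.7%.

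The 3 mice were then compared with each other. All were of the same strain and condition, and the paper does not state their sex. The test asks whether the members differed between these individuals by more than their libraries did, and it says nothing of a treatment. By the moderated F-test of limma on the log2(FPKM + 1) scale, 7 of the 10 genes differed between the mice at an adjusted p under 0.05, beside 25.5% of the 13001 genes tested. All 7 fell in mouse 3 against the mean of mice 1 and 2, beside 17.5% of all genes that were lower and 20.4% that were higher there. None of the 10 was higher, at either an adjusted or an unadjusted p (0 of 10). Both libraries of mouse 3 were below all 6 of the others in 8 of the 10 genes, beside 21.7% of all genes.

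The largest difference was that of Rbfox1, which fell in mouse 3, with a log2 difference of −0.71 ± 0.0744 (SE), or 38.8%, with an adjusted p of 0.00149. Elavl4 followed at −0.65 ± 0.0879 (adjusted p = 0.00245) and Rbfox3 at −0.49 ± 0.0752 (0.00322). These 3 genes include both of the most abundant members. Smaller differences were found for Elavl2 (−0.40 ± 0.0816, adjusted p = 0.00759), Elavl3 (−0.39 ± 0.0878, 0.0112), Nova1 (−0.37 ± 0.0689, 0.00566) and Ptbp2 (−0.34 ± 0.0681, 0.00728). The members that did not pass were Nova2, at −0.19 ± 0.0955 (adjusted p = 0.150), Rbfox2, at −0.15 ± 0.0722 (0.138), and Ptbp1, at −0.10 ± 0.0966 (0.416). Ptbp1 and Rbfox2, the members best known outside neurons, are in this group, but so is Nova2, the main Nova gene of the cortex. The broadly expressed Elavl1, not a member, fell by −0.37 (adjusted p = 0.0120, limma). Whether the differences of the members that did not pass are smaller than those of the other members was not tested.

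Among the transcripts, 23 of 32 had a mean of at least 1 FPKM. Of these, 5 differed between the mice by the F-test, beside 7.17% of 16436 transcripts, and 9 fell in mouse 3, beside 9.28%. They were both Rbfox1 transcripts, NM_001024931 and NM_001285436 of Rbfox3, NM_001038698 and NM_001163399 of Elavl4, and the sole transcripts of Nova1, Elavl3 and Ptbp2. Of these 23, 0 were higher in mouse 3 at an adjusted or an unadjusted p (limma), whereas with no minimum level 1 of 32 was higher, NM_010488 of Elavl4 (0.71 ± 0.105, adjusted p = 0.0182), beside 5.14% of 28806 transcripts. Without the second library of mouse 3 the contrast called 0 of the 23 lower (11 at an unadjusted p under 0.05) and 1 of 16391 transcripts (0.0061%), so that each transcript call printed here rests on that library. Without the second or the last library of mouse 1 the contrast called 5 and 4, beside 4.24% and 3.8% of all transcripts.

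These calls depended on the scaling and on 1 library. With each library's trend with transcript length removed, 6 of the 10 genes remained lower (all genes, 15.7%), the F-test called 4 (all genes, 20.3%), Nova1 was at −0.15 (adjusted p = 0.170), and Nova2 and Rbfox2 turned to 0.06 and 0.05 (adjusted p = 0.436 and 0.507). Scaled to the same total per library (TPM), the median difference of all genes moved from 0.02 to −0.26 and 44.2% of genes were lower. Relative to that median the 10 genes were at −0.76 (Rbfox1) to −0.14 (Ptbp1), and all 10 passed the contrast (the F-test called 9, beside 42.3% of all genes). The lower share of all calls was 46.1% with FPKM and 84.9% with TPM. Without the second library of mouse 3, the F-test called 1 of the 10 genes (Rbfox1) and 126 of all genes tested, the contrast called 6 (Elavl3 had an adjusted p of 0.0924), beside 5.49% of all genes that were lower, and Ptbp1 turned to 0.07.

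**Figure D4:**
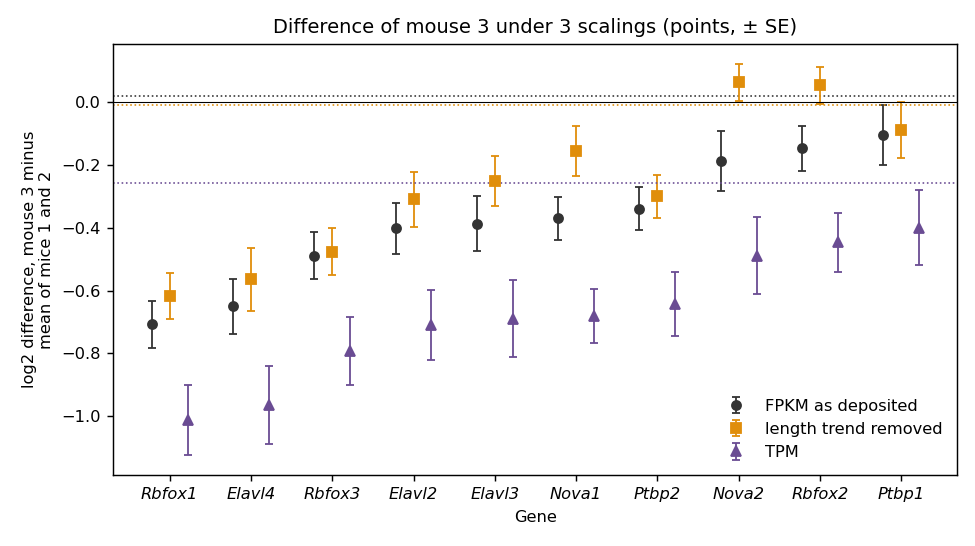
Log2 difference of mouse 3 minus the mean of mice 1 and 2 for each gene (points, with SE bars) with FPKM as deposited, with the length trend removed and with TPM, and dotted lines for the median of all genes under each scaling. Rbfox1 and Elavl4 lie farthest below the lines under the 3 scalings, and Nova2 and Rbfox2 lie above 0 once the length trend is removed.

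Markers of cell types moved between the same mice. Over all genes tested, 17.5% were lower and 20.4% higher in mouse 3 with FPKM, and 44.2% lower and 7.88% higher with TPM. The 5 neuronal markers summed to 1847 to 1859, 1730 to 1798 and 1545 to 1699 FPKM in mice 1, 2 and 3. Snap25, at 1056 FPKM, makes up most of this sum. By the limma contrast 1 of the 5 was lower (Syt1, −0.73, adjusted p = 0.00184). Snap25 (−0.12, 0.273) and Tubb3 (−0.14, 0.246) did not pass. Nefl (0.16, 0.112) and Stmn2 (0.04, 0.770) went the other way and did not pass either. Of 3 GABAergic markers, 2 were lower, and their sum was 198 to 216, 178 to 208 and 123 to 151 FPKM in mice 1, 2 and 3. Neither of 2 glutamatergic markers passed with FPKM. All 5 astrocyte markers were higher in mouse 3 (sums of 346 to 358, 346 to 368 and 523 to 559 FPKM), as were 4 of 5 oligodendrocyte markers, whose sum was 2055 to 2124 FPKM in mouse 1, 1990 to 2207 FPKM in mouse 2 and 3881 to 4801 FPKM in mouse 3. With TPM, 2 of the 5 astrocyte and 2 of the 5 oligodendrocyte markers were higher, beside 7.88% of all genes. Lower with TPM were 4 of 5 neuronal, 2 of 2 glutamatergic and 3 of 3 GABAergic markers, beside 44.2% of all genes. Of the others, 2 of 5 microglial and 2 of 4 endothelial markers were higher, 2 of 2 markers of immature neurons and 1 of 3 of choroid plexus were lower, and no marker of cerebellar granule cells, oligodendrocyte precursors, blood, muscle or pituitary passed with FPKM. With TPM, 2 of 2 precursor markers and 1 of 3 granule cell markers were lower, and with the length trend removed Hba-a1 was lower (−0.46, adjusted p = 0.00292). The part of cell composition in the members' differences was not tested.

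Other RNA-binding genes were read from the same fit. Of 72 genes in 11 lists, 71 were found, 67 were tested and 33 differed between the mice (49.3%, beside 25.5% of all genes), of which most were lower in mouse 3. The contrast called 34 lower and 2 higher, beside 17.5% and 20.4% of all genes. Their median log2 difference was −0.34, beside 0.02 for all genes and −0.38 for the 10 members. With the length trend removed 31 were lower and 1 higher, beside 15.7% and 16.3% of all genes. With TPM 53 were lower and 0 higher, beside 44.2% and 7.88% of all genes. Without the second library of mouse 3 the F-test called 1 of these genes.

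The CELF proteins, which bind GT-rich sites and often oppose muscleblind proteins, were lower in 3 of 6 genes, including Celf5 (−0.75 ± 0.0926, adjusted p = 0.00201) and Celf2 (−0.69 ± 0.104, 0.00305). Celf4, the most abundant at 99.5 FPKM, had −0.08 (adjusted p = 0.461). Of the muscleblind genes tested, Mbnl2 fell (−0.53 ± 0.0863, adjusted p = 0.00375) and Mbnl1 did not pass (−0.29, 0.0595), while Mbnl3 was below the minimum level at 0.0274 FPKM. In the STAR family, Khdrbs1, which encodes Sam68, and Sf1, which recognizes the branch point, were lower, and the neuronal Khdrbs3 (0.07) was not called. Qki was not matched in the table.

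All 4 SRRM genes were lower in mouse 3, among them Srrm2, a scaffold of nuclear speckles (−0.80 ± 0.138, adjusted p = 0.00446), and Srrm4, the activator of neuronal microexons (−0.45 ± 0.109, 0.0140). Srrm4 lost its call with the length trend removed (adjusted p = 0.0626). Of 13 SR proteins and their TRA2 relatives, 5 were lower and 1, Srsf3, was higher (0.29 ± 0.0948, adjusted p = 0.0402) with FPKM but stood at −0.00148 with TPM. Srsf5, the highest at 114 FPKM, was lower at −0.51. Of 23 hnRNP and PCBP genes, 12 were lower and 0 higher, from Hnrnpu (−0.85 ± 0.112, adjusted p = 0.00236) to Pcbp1 (−0.26 ± 0.0730, 0.0229), whereas Hnrnpk, the highest at 120 FPKM, did not pass (−0.21, 0.0643).

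Ewsr1 (−0.55 ± 0.115, adjusted p = 0.00849), the nuclear matrix protein gene Matr3 (−0.44 ± 0.0691, 0.00342) and Tardbp, which encodes TDP-43 (−0.36 ± 0.0687, 0.00595), were lower in mouse 3, and Tardbp lost its call with the length trend removed (adjusted p = 0.222). Fxr2 was lower in the FMRP family, and Fmr1 (−0.38, adjusted p = 0.0516) was not called. Among the broadly expressed homologues and partners, Elavl1 (−0.37 ± 0.0847, adjusted p = 0.0120) and Raver1, a cofactor of Ptbp1 (−0.38 ± 0.0965, 0.0169), were lower and Ptbp3 (−0.23, 0.108) did not pass. Elavl1 lost its call with the length trend removed (−0.19, adjusted p = 0.0707). Msi1, a progenitor and glial RNA-binding protein, was higher in mouse 3 (0.32 ± 0.0702, adjusted p = 0.0102) with FPKM, but stood at 0.04 with TPM (adjusted p = 0.741). The epithelial and muscle list had 1 gene tested, Rbm24, which did not pass (−0.15, 0.282).

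**Figure D5:**
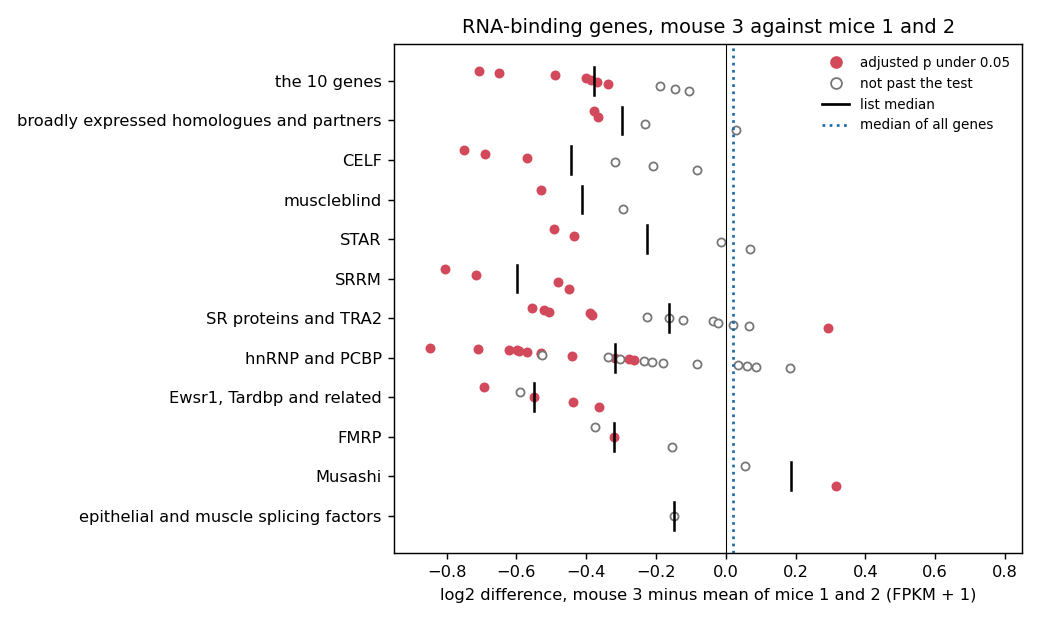
Log2 difference of mouse 3 minus the mean of mice 1 and 2 for the 10 genes and for the tested genes of 11 lists of other RNA-binding genes. Filled points passed limma's contrast at an adjusted p under 0.05, black bars are list medians, and the dotted line is the median of all genes at 0.02. Of the 67 genes in the lists, 34 lie to the left as filled points and 2 to the right. Over all genes tested, 17.5% were lower and 20.4% higher.

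Genes whose transcripts are known to be spliced or bound by members moved in both directions. Grin1, a subunit of the NMDA receptor, fell in mouse 3 (−0.54 ± 0.123, adjusted p = 0.0112), as did Kcnj6, a potassium channel (−0.50 ± 0.127, 0.0162), and Gphn, the gephyrin scaffold of inhibitory synapses (−0.33 ± 0.0873, 0.0202). Dlg4, which encodes the scaffold PSD-95 and needs a Ptbp-repressed exon for stable mRNA, was higher (0.29 ± 0.0692, adjusted p = 0.0138) but stood at −0.01 with TPM. Gap43 (0.16) and Vamp1 (0.22) did not pass. Levels of these genes are not measures of their splicing.

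As a description of likeness, the log2(FPKM + 1) values of each member were correlated with those of the 13000 other tested genes over the 8 libraries. These libraries come from 3 mice, and both libraries of mouse 3 lay below all others for 8 members. For Nova2 and Ptbp1 only the second library of mouse 3 lay apart, at 8.22 and 6.41 FPKM. The other libraries lay at 10.4 to 11.3 FPKM for Nova2 and 7.62 to 8.39 FPKM for Ptbp1. The part of mouse 3, or of that library, in the correlations was not tested. Only the 2 highest values of each member are given, so how common high values were is not shown. The genes most like Rbfox1 were Rnf111 and Matr3 (r = 0.996 and 0.995), those most like Rbfox2 were Sbno2 and Gm17644 (0.994 and 0.992), and those most like Rbfox3 were Col6a1 and Clip3 (0.995 each). Nova1 was most like Clk1 and Hsp90aa1 (0.993 and 0.990), and Nova2 most like Dcaf5 and Ncoa3 (0.990 and 0.985). Elavl2 was most like Cul4b and Thap2 (0.987 and 0.980), Elavl3 most like Snrnp70 and Epb4.1 (0.994 and 0.989), and Elavl4 most like Necab1 and Ppig (0.997 and 0.996). Ptbp2 was most like Dgkb and Ano3 (0.996 each), and Ptbp1 had the lowest values, with Csf1 and Ubr4 (0.973 and 0.971). No member was among the 2 nearest genes of another.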

How the data were processed

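RNA from whole brains of 3 mice was purified with an RNAqueous Micro kit, kept where the integrity score was above 8, and made into libraries with a Kapa mRNA HyperPrep kit for a NextSeq500 instrument. The deposited values are FPKM that the authors estimated for 34535 RefSeq transcripts per library, with confidence bounds. The deposited coverage is a signal per base of a transcript, and multiplied by transcript length it gave the bases read. The submitters' processing notes name TopHat, Cufflinks and mm10, with no version or role, and the read length and strand setting were not given in the sources used here. The number of reads behind a value is therefore unknown, and no counting interval was computed.

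FPKM were summed over the transcripts of a gene, averaged over the libraries of a mouse and then over mice. Genes and transcripts with a mean of at least 1 FPKM (13001 and 16436) were tested on log2(FPKM + 1), a scale that understates changes of low genes, with limma 3.58.1 in R 4.3.3 (mouse as factor, moderated F-test and a contrast of mouse 3 with the mean of mice 1 and 2), Benjamini-Hochberg adjustment over the whole table and a threshold of 0.05. Libraries of the same mouse served as replicates, so p-values measure the spread between libraries, which may be technical, and compare 3 individual mice only. The length correction subtracted a lowess curve (span 0.3) of each library's deviations on log transcript length. The scripts were tested on simulated data.

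Alternatives were pseudocount 0.1, a minimum of 5 FPKM or none, TPM, the length correction, the library number as a block, other means, the highest transcript only, and each library left out. A variance trend and TPM with the length correction were chosen after seeing the data. Named genes are the 10 members, their transcripts with at least 10% of a gene, for each list the highest and lowest gene and genes past the F-test (those that matter are printed), and the 2 most correlated genes. Transcripts with the features of exons, and genes of the lists named for not passing, were chosen after their values were seen. The members, lists and the contrast were chosen with earlier results of these data known. Exons came from GENCODE M21 and promoters from RefSeq (18 entries for 9 of the 10 members, none for Rbfox2). Some genes of the lists are not reported here by name.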

Additional observations from a re-analysis of the deposited data

Results flagged for a closer look

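In 2 of 21 measures of the members, 1 library stood apart from the other 7 by a gap past Dixon's critical value for 8 samples, which chance passes in about 1 of 20 such sets, and the measures share their libraries. Nova2 was at 8.22 FPKM in the second library of mouse 3, whereas the other 7 libraries lay between 10.4 and 11.3 FPKM (a gap of 0.689 of the range). Ptbp1 was at 6.41 FPKM in the same library, and the others lay between 7.62 and 8.39 FPKM (0.611 of the range). Without that library the mouse 3 differences of Nova2 and Ptbp1 were −0.02 and 0.07 on the log2 scale, and without the first library of mouse 3 they were −0.36 and −0.28.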

How the results depend on the processing

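The contrast of mouse 3 called 7 members in the main analysis and 5 to 10 under the other settings, in which 5.49% (without the second library of mouse 3) to 44.2% (TPM) of all genes were lower, and 146 of the 160 values of single members under these settings kept their direction and their side of the threshold. Directions turned for Nova2 and Rbfox2 with the length trend removed (0.0640 and 0.0541 on the log2 scale) and with TPM and the length trend removed together (0.0708 and 0.0568), and for Ptbp1 without the second library of mouse 3 (0.0665, and −0.275 without the first). The F-test called 4 members instead of 7 under either length correction, and 1 to 7 with a library left out (3 without replicate 2 or replicate 3 of mouse 1, 1 without the second of mouse 3). Of the member transcripts it called 2 instead of 5 with pseudocount 0.1, 1 with the length trend removed, 9 with a minimum of 5 FPKM, 9 with TPM, 9 with the variance trend and 0 to 3 with a library left out, where 7 to 11 had an unadjusted p under 0.05. Over all transcripts the F-test called 7.17% in the main analysis, and its shares under the other settings are not given here. Its counts are therefore not read as results about the members. The contrast called 9 member transcripts lower, beside 9.28% of all transcripts. With a library of mouse 1 or 2 left out it called 4 to 9, beside 3.8% to 10.2%. With TPM it called 13, beside 29.3%, and with a minimum of 5 FPKM 9 of 16, beside 16.8%. The fit without the second library of mouse 3 is given above. With the library number as a replicate block, limma called 0 member transcripts by the F-test (10 at an unadjusted p under 0.05), 7 member genes, 30 of the other RNA-binding genes and 2995 of all genes. Correlations of the deviations of same-numbered libraries were 0.00 to 0.11, not all over 0.1, so the numbers were not taken to pair the samples. Of the other RNA-binding genes 1 to 37 were called with a library left out, 21 without replicate 1 of mouse 1, 19 without its replicate 2, 21 without its replicate 3 and 1 without the second of mouse 3. With TPM, 1 of 9 neighbouring pairs of levels was free of overlap instead of 3, and the F-test called 5493 of all genes instead of 3310. With a library left out it called 126 to 3873. The cause of these changes was not tested beyond the settings themselves. Transcript shares rest on how the estimation divided shared reads. The Ptbp1 78-base exon had the widest range over libraries (9.68% to 83.7%). Its transcript NM_001077363 had a median half-width of the confidence bounds of 25.9%, and NM_001285437 of Rbfox3, a minor transcript, had 43.2%. The part of the division of reads in the range of the Ptbp1 exon was not tested.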
